A study of Zea mays with 10 samples.

Results

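Of the 1108 maize genes named by the probe annotation of the array, 267 (24.1%) were read below a log2 value of 4 by every one of their probe sets on all 10 arrays of stem RNA. The genes were chosen by these values, so their low level is a description and not a finding, and it was not tested. A probe set is the group of short probes that reads 1 transcript, and 1 gene can have several. Only probe sets annotated with a single gene were used, and array controls and reporter controls were left out. The 267 genes had 334 probe sets, out of 1452 for all named genes. A readable name was at hand for 236 of them and not for the other 31.

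The 5 inbred lines were each represented by 2 arrays, and every array carried the stem RNA of 1 pool of 5 untreated plants. F7025, a Flint-Dent line, derives from IodentXF113bm3, and F7033, also Flint-Dent, from (LorenaXF252)XF252. F98902 is a Dent line from Iodent, F2 a Flint line from lacaune, and Cm484 a Flint-Dent line from 200-2-1. Internode and stem part are not given in the labels used here, and nothing in the labels says that the pools of a line came from separate plots, so the spread between them may be technical. In RNA of a whole organ, a transcript of few cells and a transcript at a low level in many cells cannot be told apart.

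A mature maize plant divides its genes among organs with very different tasks. The kernel stores protein and starch in the endosperm and oil in the embryo, pollen carries its own wall enzymes and actin regulators, and tassel and ear are shaped by transcription factors that act in young meristems. The stem below them is mainly a tissue of lignified walls, vascular bundles and parenchyma. Many of the genes best known from kernels, pollen and flowers were below 4. Of 42 listed genes of seed proteins, endosperm cell types and seed regulators, 33 (78.6%) were in it. So were 13 of 16 genes of pollen, anther and actin regulation, 29 of 43 genes of flower and inflorescence (67.4%), and 23 of 38 genes of leaf and organ shape (60.5%). Starch genes (4 of 18 under 4) and Polycomb genes (2 of 5), some of them known from the endosperm, were not counted among the 42. Over all 1108 named genes the share was 24.1%, and over all 17555 probe sets that are not controls it was 34.9%. The lists were made by gene name with these values known, and their shares were not tested.

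A list of genes for cellulose synthases, lignin enzymes and tubulins, which lignifying stems use but which are active in other organs too, stands beside the labelled tissue. It was made with the values known and does not identify the organ. None of its 17 genes belonged to the group, and the median of their highest values was 12.04. The list does not hold every such gene. By its name ccr2 is a relative of the listed cncr1, but it is in no list. It read 4.78 and 3.03 in F7025 and at most 2.60 elsewhere. The phenylalanine ammonia lyase gene pal3, at the entry to lignin synthesis, was between 13.01 and 13.42 on the 10 arrays. The secondary wall cellulose synthase gene CesA12 was between 10.58 and 12.04.

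How low the 267 genes were read can be seen beside reporter controls, probe sets for reporter genes of transgenes, for which no matching maize gene is expected. The 3340 values of the 334 probe sets lay between 1.74 and 4.00, with quartiles at 2.09, 2.22 and 2.41. The median of the probe set means was 2.23 for the 267 genes, against 2.18 for the 65 reporter probe sets that stayed under 4. A value of 3 was reached by 46 of the 334 probe sets of these genes, against 3 of the 65 reporter probe sets. Both sets were bounded at 4 when they were chosen, which brings their levels together, so nothing is read from how close they are. Of the 267 genes, 225 never reached 3, and 42 came closer to 4. A value under 4 does not show that a gene is off.

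**Figure D1:**
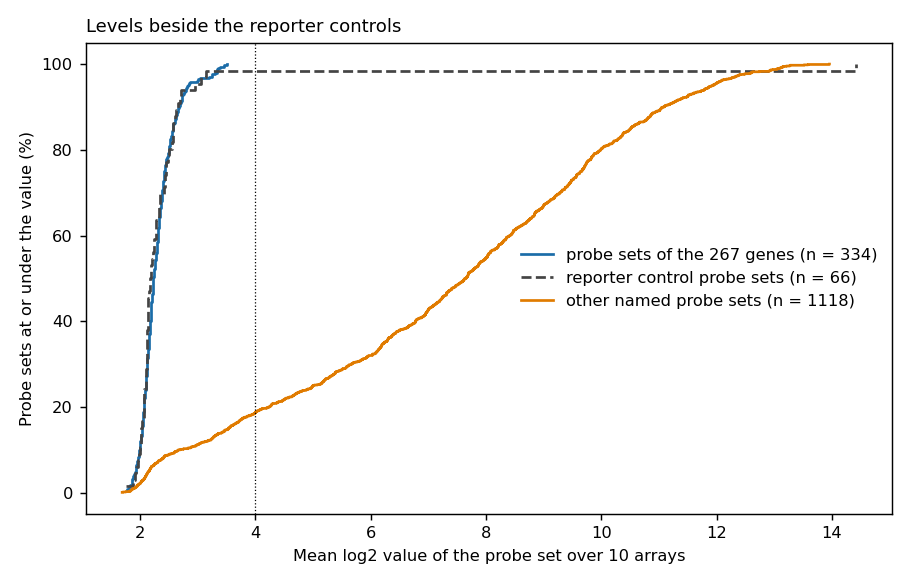
Share of probe sets (y axis, percent) at or under a given mean log2 value over the 10 arrays (x axis), for the 334 probe sets of the 267 genes, the 66 reporter controls and the 1118 other named probe sets. The curve of the 267 genes lies close to that of the reporter controls, 1 of which stands at 14.4, and the dotted line marks the threshold of 4 that chose the genes.

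A steady low reading was the rule within the group. The range over the 10 arrays was under 0.1 log2 for 179 of the 334 probe sets, under 0.2 for 255, and 1 or more for 23. The small movements had an order by array. The second array of F98902 gave the lowest value for 263 of the 334 probe sets, and the second array of F2 the highest for 170. Both of these arrays, like the second of Cm484, were made from 20 ug of RNA, whereas the others had between 60 and 100 ug. The second array of Cm484 gave the lowest value for 15 probe sets and the highest for 7. The second array of F7025, made from 60 ug, gave the highest for 82. Whether the amount of RNA plays a part in this order was not tested. The medians of the 334 probe sets per array stayed between 2.18 and 2.25. Single probe sets cannot be ranked against each other on this array, since each has its own affinity, so the level of a gene is set here against the threshold and not against that of another gene.

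Zeins, the prolamins that fill protein bodies of the endosperm, had 7 of 8 listed genes under 4. The delta zein gene dzs18 was covered by 4 probe sets, with all 40 values between 2.20 and 2.67. The alpha zein gene fl2, whose mutant floury2 has a soft opaque endosperm, was read by 2 probe sets between 2.24 and 2.43. The gamma zein gene gz50 lay between 2.23 and 2.36, and the alpha zein gene z1C1_12 between 2.10 and 2.18. The alpha zein genes z1C1_4, z1C1_20 and z1D_2 lay between 1.95 and 2.63. Alpha zeins form a family of near-identical copies, so a probe set may read several of them, and none of the copies named here reached 3.

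The exception among the zeins was gz27, a gamma zein, and its 3 probe sets disagreed. One gave values of 6.75 and 6.62 (F7025), 5.98 and 6.53 (F7033), 5.33 and 7.13 (F98902), 6.18 and 7.02 (F2) and 6.06 and 6.46 (Cm484). Its other 2 probe sets stayed between 1.89 and 2.11. In the first, the 2 arrays of F98902 held both the lowest and the highest value, and which of the 3 probe sets reads gz27 itself was not tested.

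Storage globulins and oil body proteins of the embryo were also low. The legumin gene leg1 lay between 2.13 and 2.20, the globulin gene glb2 between 2.26 and 2.36, and glb3 between 2.16 and 2.32. The oleosin gene ole1, whose product coats oil bodies, lay between 2.14 and 2.21, and EMB5, a late embryogenesis protein, between 2.30 and 2.38. The globulin gene glb1 alone in this list passed 3, in F2, and is described with the line differences. Outside the group stood the dehydrin genes dhn1 (up to 8.31) and dhn2 (up to 13.6) and the late embryogenesis gene a4Lea (up to 6.89). Dehydrins also protect vegetative cells that lose water.

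Seed regulators divided evenly, with 4 of 8 listed genes under 4. The bZIP factor o2 (opaque2) and the Dof factor PBF, which together activate zein genes, lay between 2.13 and 2.25 and between 2.23 and 2.34. The embryo factor lec1 lay between 2.11 and 2.18. The zein body protein gene FL1 (floury1) reached 3.69. Outside were vp1, Nkd1, ohp1 and ohp2. For vp1, the B3 factor viviparous1 that brings the seed into maturation, 3 of 4 probe sets would have met the rule, and the fourth read 4.86 and 5.64 in F2 but no more than 2.70 in any other line.

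The basal transfer layer of the endosperm, where sugars enter the kernel, supplied 12 of 13 listed genes. The genes betl1, betl2, betl3 and betl4, named after this layer, lay between 2.07 and 2.83. Those of the basal layer antifungal proteins, bap-1a, bap1-b, bap-3a and bap-3b, lay between 2.49 and 3.17, and only 1 probe set of bap1-b reached 3. The cell wall invertase gene mn1 (miniature1) had values of 2.20 and 2.23 (F7025), 2.19 and 2.22 (F7033), 2.18 and 2.16 (F98902), 2.20 and 2.22 (F2) and 2.21 and 2.19 (Cm484). All 10 values lay within 0.07 log2, with both arrays of F98902 just below the others. The maternally expressed meg2 lay between 1.91 and 2.22, while meg6 stood outside at 8.01 to 9.16. RefSeq lists MEG6 as a synonym of meg2 as well, so the 2 names cannot be kept apart with certainty here.

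Genes of the endosperm region around the embryo were all under 4, 4 of 4. The gene ESR1c1 was covered by 4 probe sets between 2.25 and 2.64, and esr2 lay between 2.22 and 2.35. The genes ae1 and ae3, first found in embryos raised from pollen, lay between 2.02 and 2.37. The gene ae1 here is not amylose extender, which is listed as SBEIIb. A probe set of SBEIIb reached 6.35, while another stayed between 2.32 and 2.47. In the gene order of the B73 reference (Zm-B73-REFERENCE-NAM-5.0), ae3, bap-1a and bap1-b follow each other with 0 annotated genes between, and bap-3a and bap-3b come after another 6, with 2 genes between them.

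Starch synthesis, which leaves also need, had 4 of 18 listed genes under 4 (22.2%), close to the 24.1% of all named genes. The members were sh2 (shrunken2), the large subunit of the endosperm ADP-glucose pyrophosphorylase, bt1 (brittle1), the ADP-glucose carrier of endosperm plastids, and the starch synthase genes du1 (dull1) and sugary2. Their values lay between 2.14 and 3.40. Outside, AGP2 reached 10.8, Agpsemzm 10.9, GLG1 9.71 and sbe1 8.78. Of the 5 Polycomb genes, which keep others repressed through chromatin, fie1 and mez3 were under 4. The gene fie1, known for its expression in the endosperm from the maternal copy, lay between 2.18 and 2.27. Its relative fie2 read 5.90 and 6.52 (F7025), 6.90 and 6.57 (F7033), 6.12 and 4.95 (F98902), 6.08 and 6.23 (F2) and 6.89 and 6.84 (Cm484). So every array placed fie2 above 4 and fie1 below it.

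The listed pollen and anther genes were all under 4, 8 of 8. The list may miss anther genes of the annotation. MZm3-3, which is in no list, read 2.63 and 5.23 in F98902 and at most 3.62 elsewhere. Also in no list is mfs2, close in name to the listed MFS14, at 5.68 and 5.31 in F98902 and at most 2.73 elsewhere. The fertility restorer gene rf2, again in no list, had a mean of 11.1. The full share of the list thus depends on which genes were put in it. The pollen allergen gene Zea m 3 had values of 1.78 and 1.80 (F7025), 1.78 and 1.79 (F7033), 1.76 and 1.74 (F98902), 1.78 and 1.80 (F2) and 1.79 and 1.77 (Cm484). The pollen beta-expansin gene EXPB9 lay between 2.13 and 2.23, and the pectin methylesterase gene pme1 between 2.04 and 2.11. The polygalacturonase genes PG2C and pgl1, whose products cut pectin in pollen, lay between 2.10 and 2.59. The male flower gene MFS14, read by 2 probe sets, lay between 2.16 and 2.82, and the male gametophyte genes mgs1 and mgs2 between 2.02 and 2.17. None of the 10 probe sets of this list reached 3.

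Actin regulators showed the same division within single families. Profilin binds actin monomers, and the actin-depolymerising factors cut filaments. The profilin genes prf1, prf2 and prf3, first described from pollen, lay between 2.10 and 2.55, and adf1 and adf2, also pollen genes, between 2.29 and 2.56. By contrast PRO4 lay between 11.9 and 12.2, prf5 between 12.1 and 12.6, and the 3 probe sets of ADF3 between 11.9 and 13.7. No value of this family fell between 2.56 and 11.9 on any array.

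**Figure D2:**
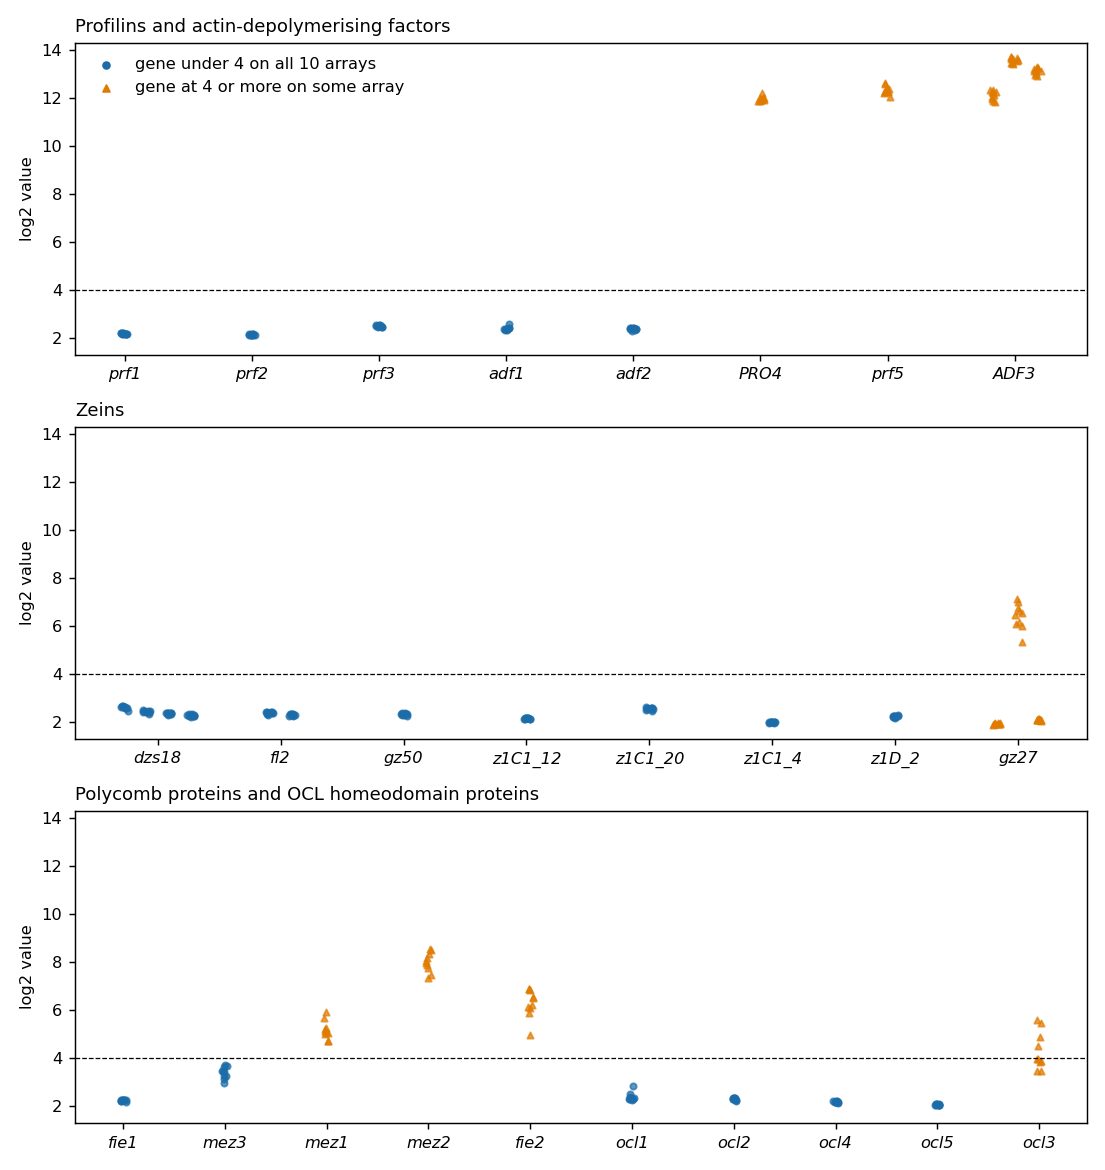
Log2 values on the 10 arrays (y axis) of each gene (x axis) of several families in 3 panels, with 1 column of 10 points per probe set; circles are genes under 4 on all arrays and triangles the others. The profilins and actin-depolymerising factors fall into a low and a high set, with adf1 at 2.56 the highest low value, gz27 has 1 high and 2 low probe sets, and mez3 and ocl3 come closest to the dashed line at 4.

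Genes that shape tassel and ear were low in 6 of 8 cases. The branching repressor tb1 (teosinte branched1) gave 2.10 and 2.12 (F7025), 2.09 and 2.11 (F7033), 2.07 and 2.05 (F98902), 2.10 and 2.12 (F2) and 2.11 and 2.09 (Cm484). The gene ts2 (tasselseed2), needed to abort pistils in the tassel, lay between 2.06 and 2.14. The axillary meristem gene BA1 (barren stalk1), the spikelet gene bd1 (branched silkless1), the flowering time gene id1 (indeterminate1) and the LEAFY homologue zfl1 lay between 1.82 and 2.16. Outside were ids1, which passed 4 with a highest value of 4.24, and the meristem size gene fea2 (up to 5.99).

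MADS-box factors, which set the identity of floral organs and the timing of flowering, were divided into 16 genes under 4 and 12 outside. The AGAMOUS relatives ZAG1, zag2 and zmm2 lay between 1.99 and 2.42, the petal and stamen gene si1 (silky1) between 2.31 and 2.46, and bde1 (bearded ear) between 2.15 and 2.22. The genes m25 and zmm14, with 2 probe sets each, and M8, MADS35, ZAG5, m1 and m5 lay between 2.02 and 3.03. The 12 outside had highest values between 4.32 (zmm16) and 11.4 (zmm19). Of these, M7 was under 4 in 4 lines. Its brighter probe set read 9.09 and 8.74 in F2 and at most 2.37 elsewhere.

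All 7 SBP-box genes were under 4. This family of plant transcription factors includes lg1 (liguleless1), which places the boundary between blade and sheath, and ub2 (unbranched2), which acts in tassel branching. The gene lg1 lay between 2.08 and 2.15, ub2 between 2.37 and 2.44, and sbp2, sbp3, sbp4, sbp6 and sbp7 between 1.95 and 2.36. All 4 YABBY genes, a family with roles in the polarity of leaves and floral organs, were also in the group, at 1.93 to 2.36. Of the 5 outer cell layer (OCL) homeodomain genes, ocl1, ocl2, ocl4 and ocl5 lay between 2.02 and 2.82. The fifth, ocl3, read 4.90 and 5.61 (F7025), 3.87 and 3.98 (F7033), 3.46 and 4.52 (F98902), 3.46 and 3.84 (F2) and 3.95 and 5.48 (Cm484), so it crossed 4 in 3 lines.

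Leaf and meristem regulators had 11 of 18 genes under 4. The narrow sheath genes ns1 and ns2, homeobox genes of the leaf margin, lay between 2.07 and 2.31, and lg2 (liguleless2) between 2.34 and 2.43. The wax gene gl1 (glossy1), with 3 probe sets, lay between 1.90 and 2.94, and the juvenile leaf factor gl15 between 1.99 and 2.06. TE1 (terminal ear1) and glk1, a regulator of chloroplast development, lay between 2.12 and 2.23. Of the list, 3 genes, cr4 (up to 3.72), lg4b (up to 3.29) and rs2 (up to 3.24), passed a value of 3. The receptor kinase gene cr4 (crinkly4) acts in the epidermis, and rs2 (rough sheath2) keeps knotted-type homeobox genes off in leaves. Outside the group, the meristem homeobox gene kn1 lay between 9.06 and 9.76, rld1 between 9.23 and 9.68, and rld2 between 8.87 and 9.13. Growth-regulating factors and their partners had 4 of 11 genes under 4, GIF1, GRF11, GRF13 and GRF14, at 2.04 to 2.48, whereas GIF2 reached 9.38.

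Among pigment genes the regulators were in the group and the listed enzymes outside. The MYB factor p1 (pericarp color1), which turns on red phlobaphene pigments, had the most probe sets of all 267 genes. Its 5 probe sets lay between 1.79 and 2.46, and each ranged over at most 0.13 log2 on the 10 arrays. The anthocyanin MYB factors c1 (kernel) and pl1 (plant body) lay between 2.04 and 2.35. The flavonoid enzyme gene f3h reached 6.03, in Cm484, and a2 was at 4.42 or more on every array.

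Root and nutrient genes had 9 of 14 listed members under 4. The nicotianamine synthase genes nas1, with 4 probe sets, and nas2, which make a chelator of iron, lay between 1.75 and 2.57. The nitrate transporter genes nrt2.1 and Nrt1.1 lay between 1.94 and 2.74, the potassium channel genes ZMK1 and KZM2 between 2.24 and 2.61, and the phosphate transporter gene pht7 between 2.19 and 2.27. The root O-methyltransferase gene zrp4 passed 3 in Cm484. Outside stood the potassium channel gene ZMK2, at 6.64 to 9.07, and the phosphate transporter gene pht1, at 6.97 to 8.88.

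Stress families were divided, and the share of defence genes under 4 (28%) was near the 24.1% of all named genes. Of 25 defence genes 7 were in the group. Among them were mir1, a cysteine protease made against caterpillars, at 1.98 to 2.04, and the terpene synthase genes TPS4 and stc1 at 2.23 to 2.52. The gene opr3 was in the group too, at 2.09 to 2.89, whereas the listed opr1, opr5, opr7 and opr8 were outside. Of these, opr7 lay between 7.80 and 9.60. Glutathione S-transferases, which couple toxic compounds to glutathione, had 15 of 31 genes under 4. The genes gst13 and gst9 are direct neighbours in the reference order, as are gst28 and gst7. Both of each pair were in the group, and gst13, gst9 and gst7 stayed under 3.

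Water channels had 5 of 28 genes under 4 (17.9%), a lower share than the 24.1% of all named genes. The seed vacuole forms TIP3-1 and TIP3-2 lay between 2.20 and 2.37, and TIP2-2 between 1.74 and 1.80. The vacuolar TIP5-1 and the nodulin-type NIP1-1 reached 3.82 and 3.60. No listed PIP gene, the plasma membrane type, was in the group, and pip1-2 reached 12.6. A gene with the symbol pip, which is in no list, was under 4, at 2.03 to 2.29. What it encodes was not settled here. The expansin list, for proteins that loosen growing walls, had 2 of 11 genes under 4 (18.2%, beside 24.1%), expB3 and expa2. The beta-expansin gene EXPB9, also under 4, was counted with the pollen genes, so nothing is read from this difference. The value of expa2 was 3.70 on the second array of F98902, against 1.90 on the first array of that line and 1.92 to 1.94 on the other 8.

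Dividing cells were represented by 11 of 23 listed genes of the cell cycle and of recombination. The mitotic cyclin genes cyc1, cyc2 and cyc3 lay between 2.01 and 2.19, the spindle checkpoint gene mad2 between 2.16 and 2.21, and the mitotic inhibitor gene wee1 between 2.19 and 2.30. The recombinase genes rad51a and rad51b reached 3.05 and 2.78, and the centromere protein gene CenpcA 3.86. Outside, the kinase gene cdc2 reached 9.17 and cycD2 9.19. Kinesins, the motor proteins of microtubules, had 4 of 8 genes in the group, KIN13, KIN8, kin11 and kin4, at 1.99 to 2.49.

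Near the share of all named genes (24.1%), 6 of 27 hormone genes (22.2%) were in the group. They were yuc and iaglu, for making and storing auxin, aux1, for auxin uptake, ckx1, which breaks down cytokinin, abph1, a cytokinin response regulator of leaf arrangement, and KS2.1 of gibberellin synthesis. Their values lay between 1.97 and 3.51, and ckx1 alone passed 3. All 3 listed sodium/proton exchangers, NHX3, NHX5 and NHX6, were under 4, at 1.84 to 2.39. In no list were 97 of the 267 genes, 66 of them with a readable name. Early in alphabetical order among these are ACHE, an acetylcholinesterase, AGA3b, an alkaline alpha-galactosidase, and AO2, an aldehyde oxidase. Of the 753 named genes in no list, 97 (12.9%) were under 4, against 170 of 355 (47.9%) in the lists.

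**Figure D3:**
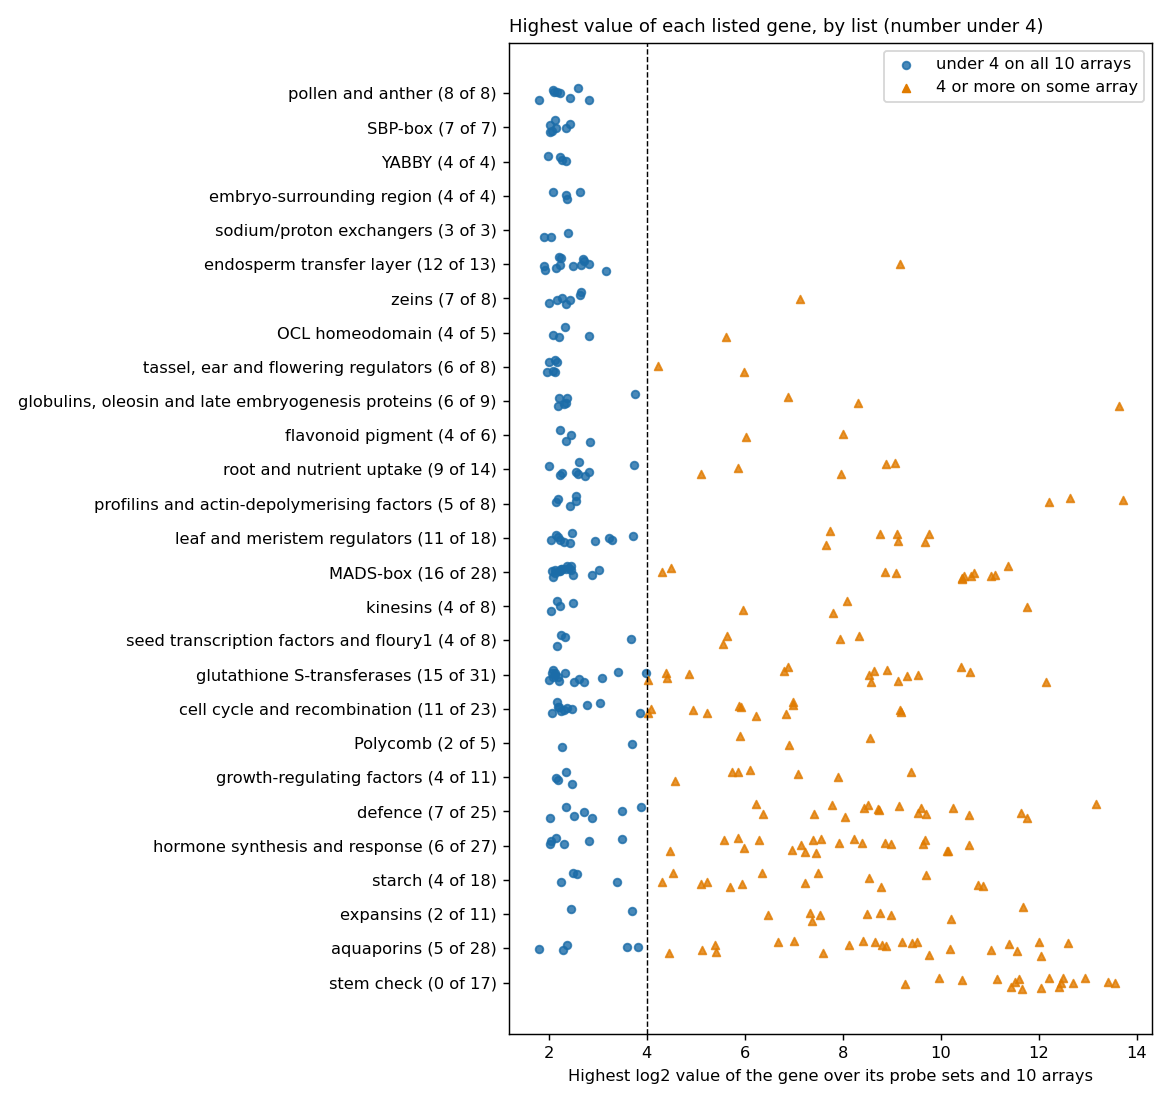
Highest log2 value of each listed gene over its probe sets and the 10 arrays (x axis), by list (y axis, with the number under 4 and the number of genes). Circles are genes under 4 on all arrays and triangles the others, with the dashed line at 4. The first 5 lists hold circles alone, most circles lie near 2, and the list of stem genes at the bottom holds triangles alone.

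The threshold cut through a thin part of the distribution. Of the 267 genes, 42 had a highest value between 3 and 4, whereas 55 other genes had one between 4 and 5 and 534 reached 8 or more. Just inside were LOC541758 (4.00 after rounding), gst31 (3.98), CCamK (3.97), ACHE (3.95), zr1 (3.90), an2 (3.88), CenpcA (3.86) and crp1 (3.86). Just outside were gst42 (4.02), MCM7 (4.03), sdg113 (4.06), psk1 (4.06), AO1 (4.08), rrb2 (4.09), LPE1 (4.11) and dbf2 (4.11).

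Several of the genes just inside came near 4 on 1 or a few arrays only. The calcium and calmodulin dependent kinase gene CCamK read 3.97 on the first array of F98902, against 2.64 on the second, and 3.24 and 3.32 in F2. The terpenoid gene an2, for ent-copalyl diphosphate synthase, read 3.88 on the first array of F2 and 3.39 on the first of F7025, with every other array at or below 2.90. The chloroplast RNA processing gene crp1 lay between 3.04 and 3.86 on the 10 arrays.

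Membership by line showed how far the 5 lines shared their low genes. The number of named genes under 4 by every probe set on both arrays of a line was lowest in F7025, at 323, and highest in F2, at 347, with 336 in F98902 and 341 each in F7033 and Cm484. The 267 genes are those under 4 in all 5. A further 51 genes were under 4 in 4 lines, and in 24 of these both arrays of the remaining line were at 4 or more, 9 times in F2. Genes never under 4 in a whole line numbered 708.

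Which of the low probe sets still differed between lines was asked with limma's moderated F-test, fitted on all 17555 probe sets without a filter and adjusted by the Benjamini-Hochberg method. Over all probe sets, 45.7% passed at an adjusted p under 0.05, and among the 334 probe sets of the 267 genes 26 (7.78%) did. Passing with line means at least 1 log2 apart were 30.8% of all probe sets and 9 (2.69%) of the 334. The rule bounded these same values from above, so the counts are a description. The median gap between the highest and the lowest line mean was 0.06 log2 for the 334 probe sets and 0.67 for all 17555. The lines near the floor hardly vary, and p-values that pool their spread with that of a brighter line can be too small. After quantile normalization 48 of the 334 passed, and without the first array of F98902 the 9 became 14. All 9 probe sets stayed under 4, where a ratio has little meaning, so differences are given in log2 and not as folds.

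The smallest adjusted p of the 9 belonged to hm1, the gene of the reductase that detoxifies HC toxin and protects maize from the fungus Cochliobolus carbonum. It read 3.50 and 3.43 in F2, against 2.08 and 2.11 in F7025, 2.09 and 2.11 in F7033, 2.16 and 2.21 in F98902, and 2.09 and 2.08 in Cm484. Both arrays of F2 were above all 8 others, with a line mean of 3.47 ± 0.05 (SD, n = 2). The gap of 1.38 log2 had an adjusted p of 2.79e-07 in limma's F-test. The SDs of the other lines were only 0.01 to 0.04 log2, so this p can be too small. The same limit holds for the p-values of the other probe sets below.

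The globulin gene glb1 was also highest in F2. It read 3.38 and 3.75 there, against 2.52 and 2.56 in F7025, 2.52 and 2.55 in F7033, 2.49 and 2.48 in F98902, and 2.53 and 2.51 in Cm484. The groups did not overlap, and the gap was 1.08 log2 (limma F-test, adjusted p = 0.000423).

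Cm484 stood apart for zrp4, TIP5-1 and akh2, whereas gst28 was highest in Cm484 but also raised in F98902. The root O-methyltransferase gene zrp4 read 3.74 and 3.73 in Cm484, against 2.37 and 2.39 in F7025, 2.36 and 2.37 in F7033, 2.31 and 2.28 in F98902, and 2.66 and 2.39 in F2. Its gap was 1.44 log2, with an adjusted p of 2.69e-05 in limma's F-test. TIP5-1 read 3.32 and 3.82 in Cm484, against values of 2.24 to 2.48 on the other 8 arrays (gap 1.31, limma F-test, adjusted p = 0.000826). For both genes the 2 arrays of Cm484 lay above all others.

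The gene akh2, for an aspartate kinase and homoserine dehydrogenase of amino acid synthesis, read 3.74 and 3.48 in Cm484, against 2.94 and 2.86 in F7033 and 2.47 to 2.65 on the other 6 arrays. Its gap was 1.07 log2 (limma F-test, adjusted p = 0.000313). The transferase gene gst28 read 3.40 and 3.22 in Cm484 and 2.22 and 3.03 in F98902, against 1.79 to 1.80 in the other 3 lines (gap 1.52, limma F-test, adjusted p = 0.00262). The 2 arrays of F98902 lay far apart for gst28, 1 of them near the arrays of Cm484.

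FL1 read 3.69 and 3.14 in F7033, against 2.40 and 2.88 in F7025 and 2.23 to 2.40 in the other 3 lines. Its gap of 1.13 log2 had an adjusted p of 0.00983 in limma's F-test, and of 0.0735 without the 3 arrays made from 20 ug of RNA, a fit chosen after seeing the data.

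The 4 probe sets of gst31 did not tell the same story. The first to be described read 3.98 and 3.73 in F7025, against 2.27 and 2.29 in F7033, 2.31 and 2.77 in F98902, 2.27 and 2.29 in F2, and 2.28 and 2.26 in Cm484 (gap 1.59, limma F-test, adjusted p = 0.00031). A second read 3.47 and 2.37 in F7025 and 2.62 and 3.23 in F98902, against 1.84 to 1.86 in the other 3 lines. Its adjusted p in limma's F-test was 0.0366, and leaving out any 1 of 7 arrays ended the call, with an adjusted p of up to 0.0835 (without the second array of F2). Without the 3 arrays made from 20 ug of RNA it was 0.182. The other 2 probe sets reached 3.85 in F7025 and 3.57 in F98902. In F7033, F2 and Cm484 all 4 stayed at or under 2.29.

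**Figure D4:**
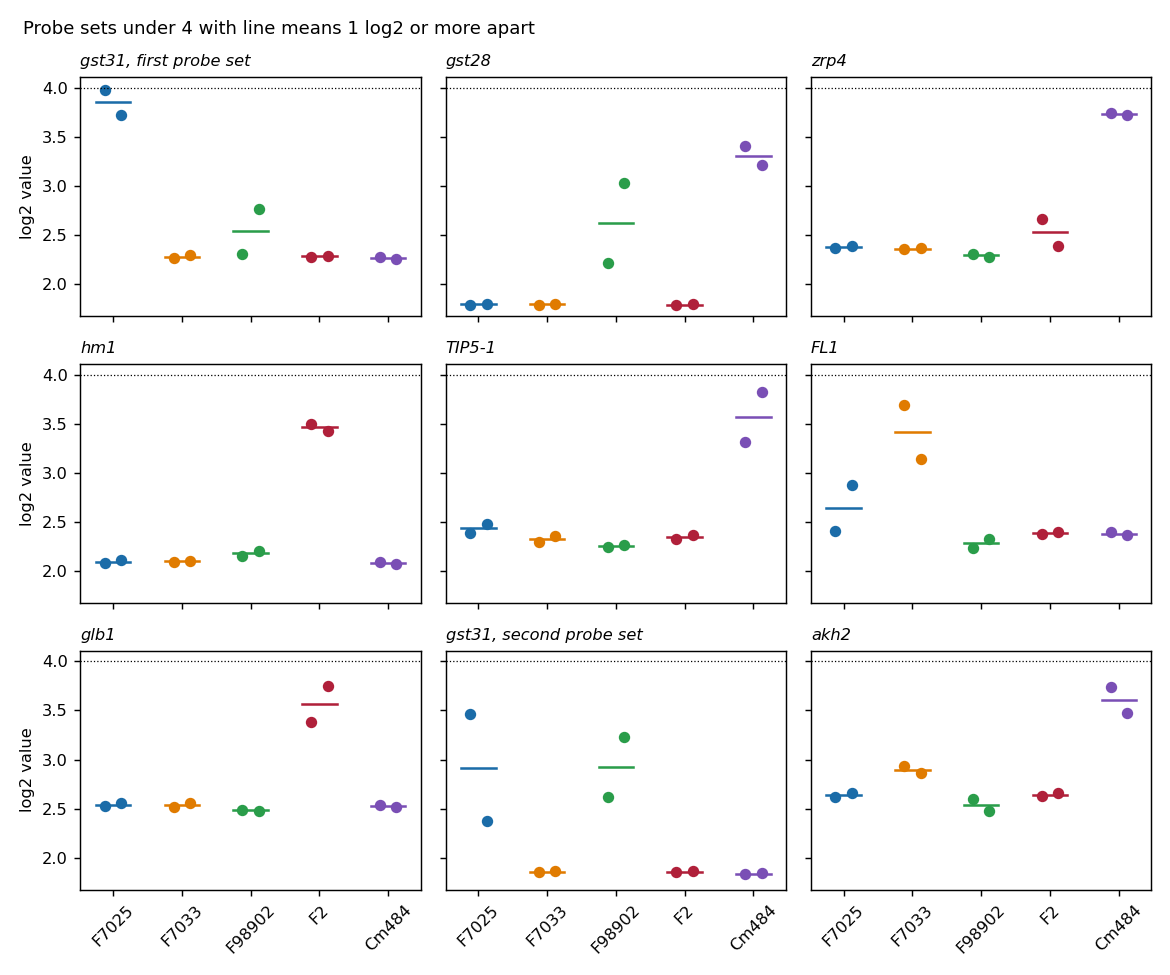
Log2 values (y axis) on the 2 arrays of each line (x axis, points) and their mean (bar) for the 9 probe sets under 4 with an adjusted p under 0.05 and line means at least 1 log2 apart; the dotted line marks 4. F2 stands above the others for hm1 and glb1, Cm484 for zrp4, TIP5-1 and akh2, and the 2 probe sets of gst31 differ in F98902.

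The other 17 probe sets that passed had gaps under 1. Among them were zr1, at 3.87 and 3.90 in F2 against at most 3.31 elsewhere, and lg4b, a knotted-type homeobox gene, at 3.16 and 3.29 in F7033 against at most 2.76 elsewhere. For lg4b the gap was 0.80 log2 (limma F-test, adjusted p = 0.000163) and for zr1 0.91 (0.00377). The gap of mez3 was 0.57 log2, with 3.66 and 3.70 in F7033 and 3.24 and 2.97 in F98902.

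Most of the 267 genes were read by a single probe set. Of 886 genes with 1 probe set, 220 were under 4. Of 222 genes with several, 47 were under 4 by all of them, and another 90 had some under and some above. Such disagreement was found in 79 of 129 genes whose probe set names carry both of the letters A and S. It was found in 11 of 93 genes with 1 letter only. What the letters stand for was not settled here. A low reading of a gene with 1 probe set thus rests on that probe set alone, and this holds for 220 of the 267. Genes with at least 3 probe sets, all of them under 4, numbered 13, among them p1, dzs18, ESR1c1, nas1, gl1 and GRF13.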

How the data were processed

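Affymetrix maize arrays were hybridised with 20 ug of biotin-labelled cRNA made from 20 to 100 ug of stem RNA, per the labels. The authors' deposited values are log2 signals per probe set, made with GCRMA per the submitters' processing notes (version not given in the sources used here). That they are log2 was inferred from their range in the table, 1.35 to 14.6. GCRMA corrects background by probe sequence and equalises arrays, so dim probe sets gather near a floor, and a shift of all genes would be removed. The number of arrays limits precision, and nothing was normalized further.

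The table held 17734 probe sets. Genes were taken from the platform annotation, which named several genes for 1 probe set, and names from RefSeq (Zm-B73-REFERENCE-NAM-5.0) by gene identifier, which matched 249 of the 267 genes. Membership, the 27 gene lists and the comparisons were chosen with earlier results of these data known. The rule for named genes took list members with a sure role (in lists over 8, those with the most probe sets, then alphabetical), up to 4 outside genes per list, the 8 on each side of the threshold, and those that passed the F-test with line means 1 log2 apart. Others named beyond it, such as si1, zag2, m5, mn1, cr4, lg4b, rs2, zr1, vp1 and M7, were chosen after their values were seen. Lines were compared in 1 limma 3.58.1 fit (R 4.3.3; lmFit, eBayes with variance trend; 5 residual and 2.34 prior degrees of freedom), tested on simulated data. Alternatives were other thresholds, filters, normalization, array weights, a replicate block and omitted arrays. Python 3.11.15 with pandas 2.3.3 and matplotlib 3.10.9 made the counts and plots.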

Additional observations from a re-analysis of the deposited data

Results flagged for a closer look

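Outside the named genes, 1 of the 66 reporter control probe sets was bright on all 10 arrays, at 14.28 to 14.53 (mean 14.4 ± 0.079, SD), while the other 65 stayed at or under 3.33. It drew attention because it is a signal in probe sets that the comparisons do not use. It was left out of the levels that the low genes were set against, and its source was not tested.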

How the results depend on the processing

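The number of genes under the threshold was 267, and it stayed within 1.5 times that under the other settings tried. It was 225 at a threshold of 3, 322 at 5, 287 with line means, 294 with 9 of 10 arrays enough, 357 with 1 probe set enough, 268 after quantile normalization, and 267 to 275 with 1 array left out. Without the 3 arrays made from 20 ug of RNA, a setting chosen after seeing the data, it was 280. Reporter probe sets under the threshold numbered 65 at 4, 62 at 3 and 65 at 5. The 26 probe sets past the F-test became 48 after quantile normalization, and the cause was not tested. They were 22 without a variance trend, 25 with array weights, and 20 to 39 with 1 array left out, the 39 without the first array of F98902. The 9 with line means 1 log2 apart became 7 to 14 with 1 array left out, the 14 also without the first array of F98902. Replicate numbers were not taken to pair the samples in the main fit. Deviations of same-numbered arrays of different lines correlated at r = -0.34 to 0.34, and 4 of 10 pairs were over 0.1. The highest 3, at 0.25 to 0.34, were among F98902, F2 and Cm484, whose second arrays were all made from 20 ug of RNA. With the number as a replicate block, 21 probe sets passed, and 8 of these had line means 1 log2 apart. In some alternatives the gap of a probe set fell under 1 log2. It was 0.90 for glb1 without the second array of F2, and also without the 3 arrays made from 20 ug. It was 0.86 for FL1 without the first array of F7033, and 0.94 for akh2 without the first of Cm484. The next count leaves the gap aside. Of 135 alternative values for the 9 probe sets, 123 kept an adjusted p under 0.05 in limma's F-test, and 12 lost it. Of these losses 11 were for the second probe set of gst31 (adjusted p 0.056 to 0.182, 0.0564 with the block), the 0.182 without the arrays made from 20 ug, and 1 was for FL1 (0.0735 without the same arrays). A filter at log2 4 would leave out every one of the 334 probe sets and gave no value. Near the floor the arrays give little order to values, and a low value does not show that a transcript is absent.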
